A study of Mus musculus with 16 samples.

Results

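The mouse miRNAs numbered miR-6896 to miR-7094 form a block that was named largely from mirtrons and tailed mirtrons, which are miRNA precursors cut out of host transcripts as short introns. The block was taken by name, with any letter or arm, and held 400 of the 1881 mature miRNAs on the array. Detection was read for all 400, while signal and genotype change were read for the 44 members chosen by detection on at least 8 of 16 arrays, whatever the genotype, and these were 44 of 495 such miRNAs. The arrays measured total RNA from the wall of the lateral ventricle (LV), a tissue slice that holds ependymal cells together with neurons, glia and vessels. Each of 8 WT littermates and 8 Dgcr8+/- mice, all males at 8 months of age, gave 1 array. Dgcr8+/- mice carried a constitutive heterozygous deletion of Dgcr8 in every cell, on a C57BL/6J background obtained by back-crossing, and the labels name no treatment. In bulk tissue, fewer cells of a type and less RNA per cell cannot be told apart.

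Most miRNAs are cut first in the nucleus and again in the cytoplasm. The Microprocessor, made of Drosha and its RNA-binding partner Dgcr8, releases a hairpin from the primary transcript, and Dicer then removes its loop. A mirtron bypasses the first cut, because splicing and debranching of a short intron yield the hairpin directly. In a tailed mirtron only one end of the hairpin coincides with a splice site and the other end is trimmed, and in most such mammalian precursors the shared end is the 3′ splice site. Introns begin with GU and end with AG, so these letters at the ends of a hairpin are the features searched here. Mirtrons as a class are weakly expressed, and their 5p arms are often rich in G because the opposite arm carries the C- and U-rich tract that precedes the 3′ splice site.

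Mature sequences from RefSeq (GRCm38.p6) matched 352 of the 400 members and 42 of the 44 tested members by name. Those of the members described most fully below are printed 5′ to 3′, with the seed (bases 2 to 8), the stretch that pairs with target mRNAs, in capitals. The first 7 are among the 8 members with the largest rise that were detected on all 16 arrays, the next 4 complete the brightest members, and the last pair are the other arm of Mir7047 and a member that shares a seed with miR-7047-5p.
miR-6997-5p: uAACAGGCuggagaggugcaga
miR-7002-5p: uUGGCUUCggggaguacgugg
miR-6937-5p: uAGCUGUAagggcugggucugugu
miR-7047-5p: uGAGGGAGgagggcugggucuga
miR-7036a-5p: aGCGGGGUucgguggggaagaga
miR-7020-5p: uGGGAUGGuggagagggugaccag
miR-7018-5p: gUGAGCAGacagggaguggugggg
miR-7082-5p: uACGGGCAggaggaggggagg
miR-6931-5p: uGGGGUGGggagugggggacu
miR-6988-5p: gGGGUGGAgagcugaggccca
miR-6908-5p: uUGCCUGUcagggagagcccca
miR-7047-3p: uCACCCUCacccuuccuccuucc
miR-6965-5p: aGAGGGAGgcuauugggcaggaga

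The seeds were almost all different. The 42 tested members with a sequence had 41 seeds, 1 pair (miR-7047-5p and miR-6965-5p) shared GAGGGAG, and no member shared its seed with any of the 384 tested miRNAs outside the block that had a sequence. The seed held GGG in 20 of the 42 members (47.6%) and in 41 of those 384. In the 36 tested 5p arms with a sequence, the median G content was 50% of the bases and GGG lay somewhere in the mature sequence of 32 (88.9%). Among all 486 5p miRNAs of the array outside the block with a sequence, GGG was present in 28.2%. The 6 tested 3p arms had a median G content of 11.4% and none held GGG. Whatever the arm, GGG was thus present in 32 of the 42 tested members with a sequence (76.2%). It was present in 23 of the 37 tested miRNAs numbered 5000 or above outside the block with a sequence (62.2%).

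The hairpins showed the 3′ splice-site letters far more often than other hairpins did. RefSeq held 182 hairpins of the block, of which 169 (92.9%) ended with AG, against 66 of 770 hairpins (8.57%) of the other miRNAs on the array. Only 27 of the 182 (14.8%) began with GU, and 21 (11.5%) had both GU at the start and AG at the end, against 9 of 770 (1.17%) outside the block. Block hairpins were shorter, with a median length of 66 bases against 83. By gene spans of the same assembly, 180 of the 182 lay within a protein-coding gene, compared with 444 of 770 outside the block, but the table holds no exons or strands, so splice sites themselves were not checked. Of the 39 block hairpins with a tested arm, 37 ended with AG and all 39 lay within a protein-coding gene. Hairpin ends are those that the annotation records, and the letters were searched on the hairpin strand only. The following hairpins are printed with the mature arms in capitals, because Mir6997 gave the member with the largest rise, and Mir6931 and Mir7018 had GU and AG at their ends.
Mir6997 (chr2:29995950-29996020, plus strand, within Sptan1): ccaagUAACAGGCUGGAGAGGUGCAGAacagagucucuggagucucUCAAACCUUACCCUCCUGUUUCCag
Mir6931 (chr11:102999848-102999921, minus strand, within Dcakd): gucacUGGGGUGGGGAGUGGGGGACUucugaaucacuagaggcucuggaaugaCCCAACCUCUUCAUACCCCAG
Mir7018 (chr4:137538286-137538370, plus strand, within Hspg2): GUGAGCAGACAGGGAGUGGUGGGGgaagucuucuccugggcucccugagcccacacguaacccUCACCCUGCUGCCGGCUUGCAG

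Most members gave no signal above background in the LV wall. The Agilent software called 345 of the 400 members (86.3%) detected on no array, 11 on 1 to 7 arrays, 7 on 8 to 15 arrays and 37 on all 16. Thus 11% of the block reached 8 arrays, against 451 of 1481 other miRNAs (30.5%). The 5p arm dominated, with 38 of 201 5p members (18.9%) and 6 of 199 3p members (3.02%) past the 8-array limit. Outside the block the arms were nearly level, at 31.4% of 5p and 34.6% of 3p miRNAs. Of the 202 hairpin names in the block, 37 had the 5p arm alone tested, 5 had the 3p arm alone, 1 (miR-7047) had both and 159 had neither. A miRNA called undetected has only an upper bound on its signal, and its true level was not measured.

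**Figure D1:**
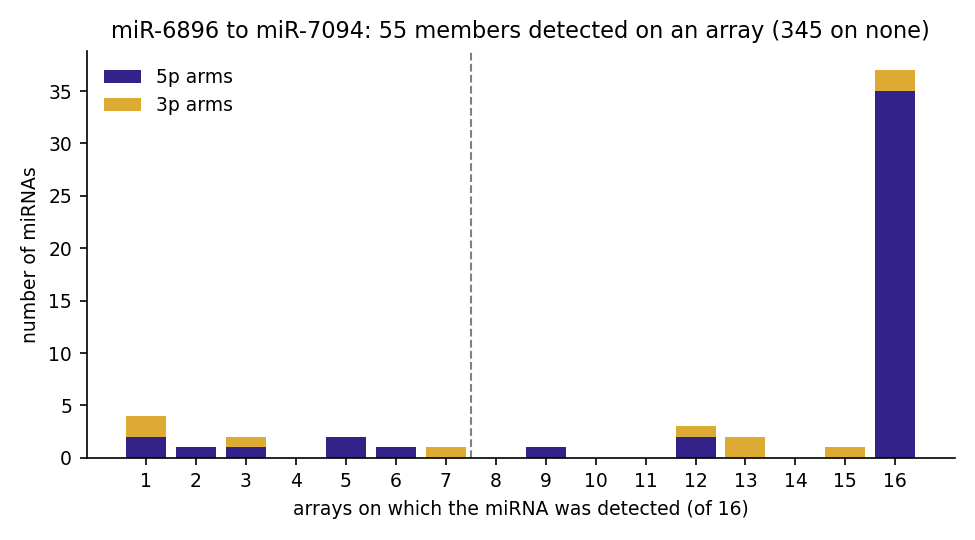
Number of block members by the number of arrays, of 16, on which the software detected them, stacked by arm (5p and 3p). The dashed line marks the 8-array limit for testing, and the 345 members detected on no array are left out of the bars, so that the 37 members on all 16 arrays, 35 of them 5p arms, stand beside 18 members with partial detection.

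The genotypes did not separate in how many members were detected. WT arrays detected from 40 to 50 members, with a median of 44, and Dgcr8+/- arrays from 42 to 47, with a median of 44.5, so the range of the mutants lay inside that of WT. For the miRNAs outside the block, WT arrays detected from 453 to 490 and Dgcr8+/- arrays from 420 to 448, without overlap. Detection by genotype is a description and was not tested.

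No member was detected on exactly 8 arrays, but others lay close on both sides of that limit. Just inside it, miR-6912-5p was detected on 9 arrays (7 WT and 2 Dgcr8+/-), and miR-6978-5p, miR-6980-5p and miR-7080-3p were detected on 12 arrays each (5 WT and 7 Dgcr8+/-). Just outside it, miR-7052-3p was detected on 7 arrays (3 WT and 4 Dgcr8+/-), miR-6981-5p on 6 (3 of each genotype) and miR-7031-5p on 5 (3 WT and 2 Dgcr8+/-). The mean log2 signals of those just outside, 2.92 and 3.27 for miR-7052-3p, 3.08 and 3.30 for miR-6981-5p, and 3.19 and 3.49 for miR-7031-5p in WT and Dgcr8+/- mice compare with 2.47 to 3.15 and 2.86 to 3.36 in those just inside. Every tested member was detected in both genotypes.

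To ask whether members changed when a copy of Dgcr8 was lost, their signal was compared after quantile normalization, which gives every array the same distribution, so a value is relative to the other miRNAs of that array. Of the 44 tested members, 30 passed an adjusted p below 0.05 as higher in mutants (limma over 495 miRNAs) and none was lower; at an unadjusted p below 0.05, 33 passed, all higher. Over all 495 tested miRNAs, 28.3% were higher and 27.9% lower by the same rule. The higher calls depended on normalization, since 0 members passed as higher before normalization or with scaling on labelling spike-ins. At the study's thresholds, a p below 0.05 and a log2 change beyond 0.4, 15 members were higher (10.5% of all tested miRNAs) and 0 lower (18.0%), and the methods' t-test after Benjamini-Hochberg adjustment gave 29 higher. All 44 log2 fold changes were positive after quantile normalization, from 0.02 to 0.70 with a median of 0.36, whereas only 17 were positive before normalization. The 451 tested miRNAs outside the block had a median of 0.00 after quantile normalization, with 110 higher and 138 lower. The 48 of these numbered 5000 or above had 46 positive changes and a median of 0.35. After quantile normalization, 42 of the 44 members had every probe higher in Dgcr8+/- mice, and the other 2 (miR-6978-5p and miR-6912-5p) had 1 of 2 probes higher.

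**Figure D2:**
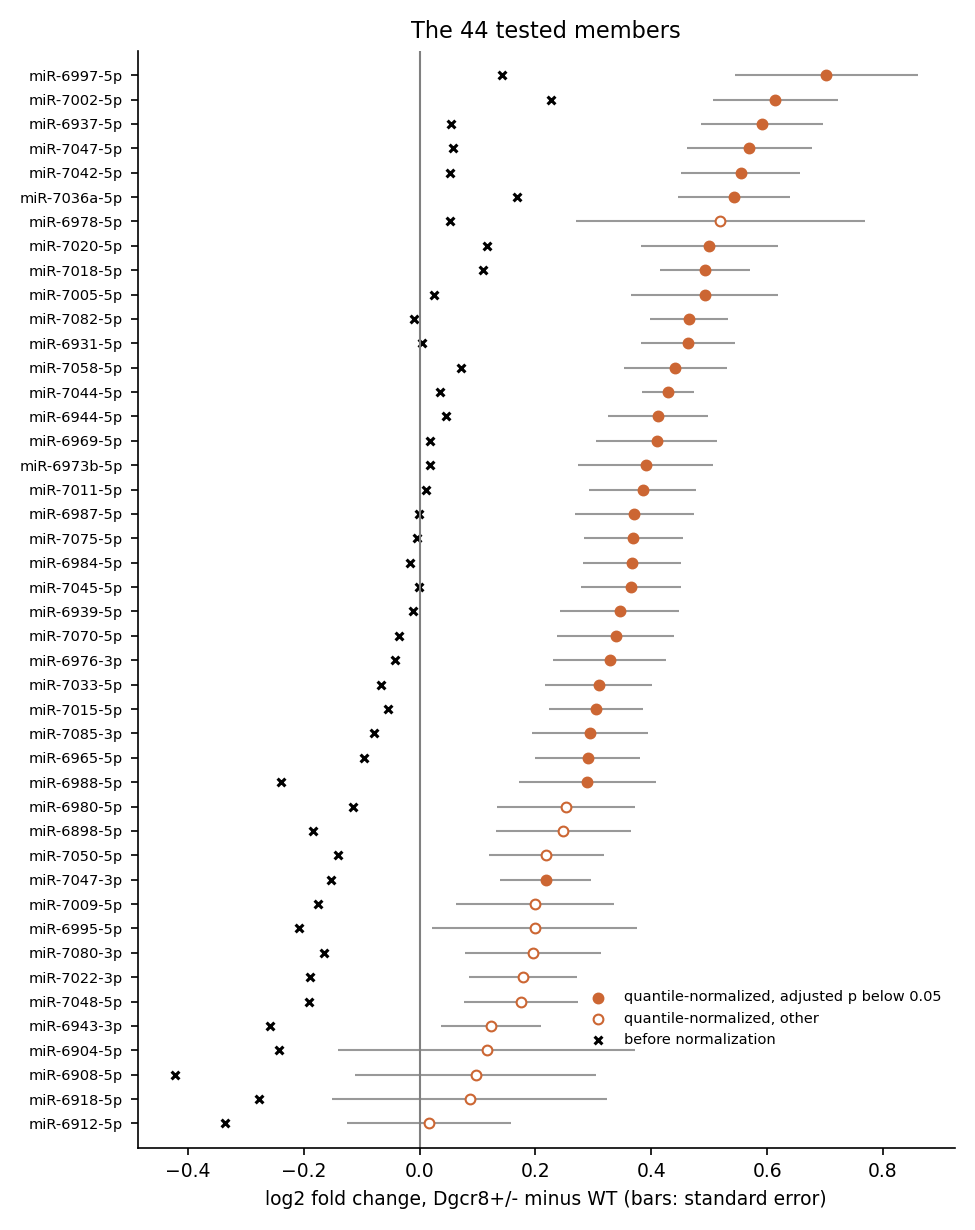
Log2 fold change of each tested member, Dgcr8+/- minus WT, after quantile normalization (circles with standard error, filled at an adjusted p below 0.05) and before any normalization (crosses). All 44 circles lie above 0, while the crosses lie from -0.42 to 0.23 and only 17 of them are above 0.

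A single library and the slides touched the size of these changes. Dgcr8+/- replicate 2, with the lowest hybridization spike-in signal and the fewest detected miRNAs (467) of the 16 arrays, gave the highest mutant value for 29 of the 44 members and the lowest for 3. Without it, 33 members passed as higher, including the same 30, and the median log2 fold change was 0.30. Slide 1 held 6 WT and 2 Dgcr8+/- arrays (replicates 2 and 5), and slide 2 held 2 WT and 6 Dgcr8+/- arrays. Within slide 1, 25 members were higher with a median of 0.53, and within slide 2, 21 were higher with a median of 0.29. With the slide as a block, 35 members passed as higher. The other tested miRNAs had medians of -0.06 within slide 1, 0.02 within slide 2, -0.01 with the slide as a block and 0.01 without replicate 2. The share of all tested miRNAs called higher in these settings is not given here.

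The brightest member was miR-7047-5p. Its log2 signal in WT mice lay between 7.51 and 8.25 (median 7.90), and in mutants between 8.10 and 8.77 (median 8.49). The lowest mutant overlapped the highest WT mice. It rose by 0.57 on the log2 scale (standard error, SE, 0.11, limma adjusted p = 0.000301), a 1.48-fold difference in normalized signal. Before normalization it was 0.06 (adjusted p = 0.71). The other arm, miR-7047-3p, lay between 3.20 and 3.62 in WT mice (median 3.49) and between 3.43 and 3.90 in mutants (median 3.62), and the groups overlapped. Its rise of 0.22 (SE 0.08, adjusted p = 0.0267) passed, but its adjusted p lay between 0.0515 and 0.0559 when WT replicate 4, 7 or 8 or Dgcr8+/- replicate 3 was left out, and its change before normalization was -0.15. Levels of the arms come from different probes and were not set against each other. The seed partner miR-6965-5p, from a hairpin within the cyclin F gene Ccnf, stood at 5.12 ± 0.09 over WT mice (SD, n = 8) and rose by 0.29 (adjusted p = 0.0122). Before normalization its difference was -0.095.

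The largest rise was that of miR-6997-5p, encoded within Sptan1, the gene of non-erythroid alpha spectrin. WT mice lay between 6.64 and 7.60 (median 7.26), and mutants between 7.59 and 8.69 (median 7.83). The lowest mutant fell just below the highest WT mouse, and the highest was replicate 2. It rose by 0.70 (SE 0.16, adjusted p = 0.00126), and by 0.59 (adjusted p = 0.00109) without replicate 2. The difference was 0.14 before normalization (adjusted p = 0.406). Within slides it was 0.99 (slide 1) and 0.42 (slide 2).

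In miR-7002-5p, from a hairpin within Aqr, which encodes an intron-binding helicase of the spliceosome, WT mice lay between 4.88 and 5.59 (median 5.33). Mutants lay between 5.57 and 6.19 (median 5.89), so the groups overlapped only at their edge. Its rise of 0.61 (SE 0.11, adjusted p = 0.000165) was the second largest, and it kept the largest difference before normalization of the 44 members, 0.23, which missed the threshold there (adjusted p = 0.0826).

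In 9 of the 44 members every Dgcr8+/- mouse lay above every WT mouse after quantile normalization, against 7.07% of all tested miRNAs, and in none did every mutant lie below (17.2% of all tested miRNAs). The 9 were miR-6937-5p, miR-6984-5p, miR-6987-5p, miR-7018-5p, miR-7033-5p, miR-7036a-5p, miR-7042-5p, miR-7044-5p and miR-7082-5p. Among the 48 tested miRNAs numbered 5000 or above outside the block, every mutant lay above every WT mouse in 7. The signal of miR-6937-5p, within Adi1 (an enzyme of methionine salvage), lay between 6.19 and 6.85 in WT mice (median 6.61) and between 6.86 and 7.5 in mutants (median 7.14), a rise of 0.59 (SE 0.10, adjusted p = 0.000173). That of miR-7042-5p lay between 7.05 and 7.44 (median 7.15) and between 7.45 and 8.22 (median 7.71), a rise of 0.55 (SE 0.10, adjusted p = 0.000248). In both the gap between the genotypes was narrow beside the spread within each, and before normalization the difference was 0.05 in both.

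Among the others of these 9, miR-7036a-5p, from a hairpin within Srrt, a gene that itself takes part in the handling of primary miRNAs, rose from a WT range of 5.38 to 5.87 (median 5.57) to a mutant range of 5.93 to 6.62 (median 6.08), by 0.54 (adjusted p = 0.000179). For miR-7018-5p, within Hspg2 (the basement membrane proteoglycan perlecan), WT mice lay between 4.94 and 5.40 (median 5.12) and mutants between 5.43 and 5.94 (median 5.56), a rise of 0.49 (adjusted p = 6.27e-05). The tightest of the bright members was miR-7082-5p, within Raver1, the gene of an RNA-binding protein, with WT values from 6.41 to 6.68 (median 6.5) and mutant values from 6.82 to 7.29 (median 6.90). It rose by 0.47 (SE 0.07, adjusted p = 2.8e-05), and before normalization its difference was -0.01. The smallest adjusted p of the block belonged to miR-7044-5p, which rose by 0.43 (SE 0.05, adjusted p = 1.3e-06), with SDs of 0.07 in WT and 0.09 in Dgcr8+/- mice (n = 8 each). Before normalization its difference was 0.04 (limma adjusted p = 0.756), and those of miR-7036a-5p and miR-7018-5p were 0.17 and 0.11.

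Of the remaining risers named for size or brightness, miR-7020-5p, within Aldh4a1 (an enzyme of proline breakdown), lay between 4.78 and 5.23 in WT mice (median 5.01) and between 5.19 and 6.19 in mutants (median 5.47), a rise of 0.50 (adjusted p = 0.00182). Its highest value was again replicate 2. For miR-6931-5p, WT mice lay between 6.24 and 6.77 (median 6.51) and mutants between 6.74 and 7.29 (median 6.95), a rise of 0.46 (adjusted p = 0.000155). Before normalization the differences were 0.12 for miR-7020-5p and 0.005 for miR-6931-5p. The weakest call among the bright members was miR-6988-5p, within Syvn1 (a ubiquitin ligase of the endoplasmic reticulum), with WT values from 6.71 to 7.20 (median 6.95) and mutant values from 7.01 to 7.99 (median 7.12). Its change of 0.29 had an adjusted p of 0.0461, which lay between 0.0509 and 0.0848 when WT replicate 1, 2, 3, 4, 5, 7 or 8 or Dgcr8+/- replicate 1, 6 or 8 was left out. The call was also lost with the replicate number as a block (adjusted p = 0.0875), with the methods' t-test (0.0624), with cyclic loess (0.0802) and within slide 1 (0.0568), among other alternatives, and before normalization its change was -0.24.

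**Figure D3:**
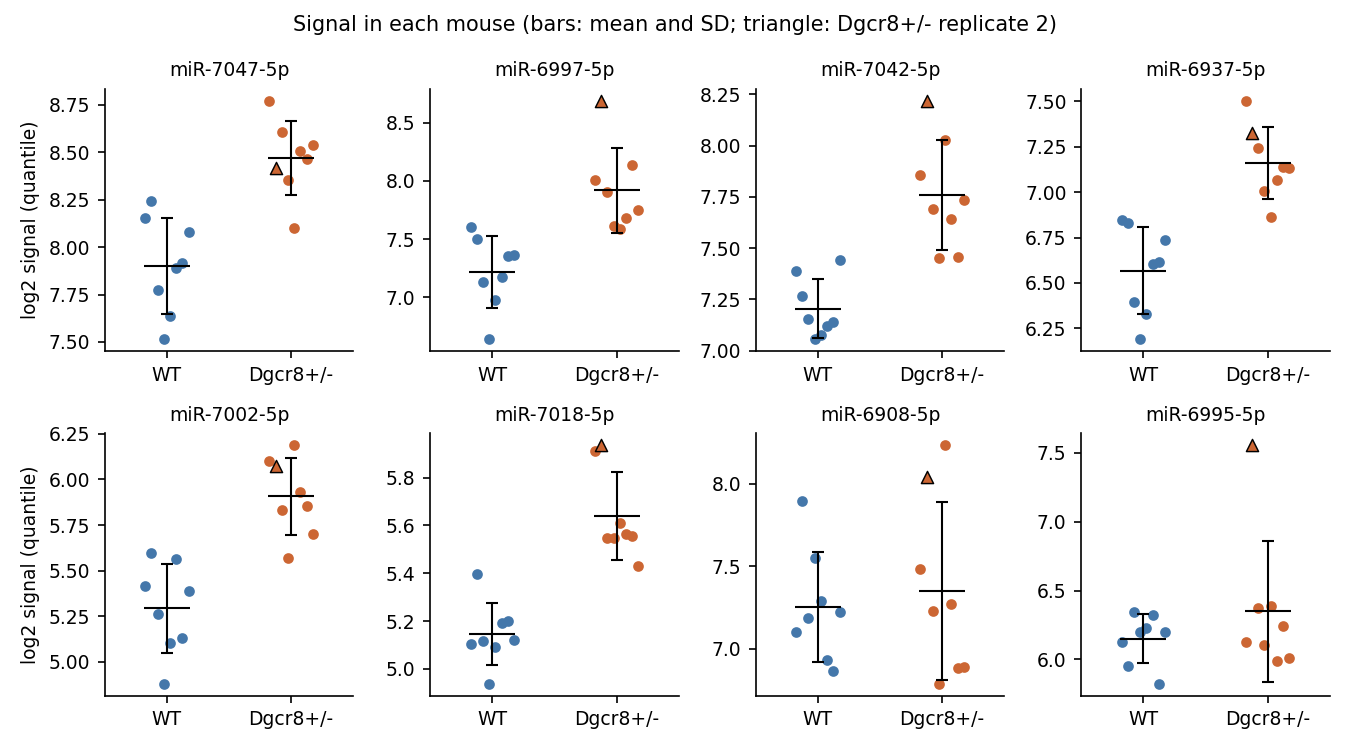
Quantile-normalized log2 signal of 8 named members in each WT (blue) and Dgcr8+/- (orange) mouse, with the mean and SD over 8 mice, on a separate vertical scale for each member. In the first 6 panels the mutants sit above or at the edge of the WT mice, while miR-6908-5p and miR-6995-5p overlap widely, and the triangle (Dgcr8+/- replicate 2) is the highest mutant for miR-6997-5p, miR-7042-5p, miR-7018-5p and miR-6995-5p.

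The other 14 tested members did not pass the adjusted threshold. The brightest of them was miR-6908-5p, within Pdxk (pyridoxal kinase), with WT values from 6.87 to 7.89 (median 7.20) and Dgcr8+/- values from 6.79 to 8.23 (median 7.25). The groups overlapped over nearly their whole range. Its difference was 0.10 (SE 0.21, adjusted p = 0.717), with 0.92 (adjusted p = 0.00256) within slide 1 and -0.29 (adjusted p = 0.411) within slide 2, and it turned to -0.0016 without Dgcr8+/- replicate 2 and to -0.03 without replicate 5. The next, miR-6898-5p, within Kansl3 (a chromatin regulator subunit), lay between 6.26 and 6.48 in WT mice (median 6.42) and between 6.44 and 7.45 in mutants (median 6.53). Its adjusted p of 0.0753 became 0.02 without replicate 2, although its change fell from 0.25 to 0.13. With the slide as a block it passed, at 0.41 (adjusted p = 0.00497). In miR-6995-5p, within Sh3pxd2a (a podosome scaffold), replicate 2 stood at 7.56 and all other mutants between 5.99 and 6.39, beside WT values from 5.82 to 6.35. Its change of 0.20 (adjusted p = 0.34) became 0.03 (adjusted p = 0.795) without that mouse, and 0.49 (adjusted p = 0.00913) with the slide as a block.

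For a pair of members replicate 2 lay far below the other mutants instead of high, which is described after its values were seen. In miR-6904-5p, within Parp1 (a DNA-damage sensor), it stood at 3.42, beside 4.56 to 5.53 in the other mutants and 4.29 to 5.17 in WT mice. In miR-6918-5p, within Nipsnap1, it stood at 4.20, beside 5.46 to 6.27 and 5.07 to 5.90. Their log2 fold changes of 0.12 and 0.09 (adjusted p = 0.725 and 0.775) became 0.33 and 0.30 (adjusted p = 0.106 and 0.0867) without it. The 4 tested members detected on the fewest arrays gave no call, with log2 differences of 0.02 for miR-6912-5p (adjusted p = 0.933), 0.52 for miR-6978-5p (adjusted p = 0.082), 0.25 for miR-6980-5p (adjusted p = 0.0754) and 0.20 for miR-7080-3p (adjusted p = 0.157). Among them miR-6978-5p, within the complement gene C3, varied most among WT mice (SD 0.44, n = 8), and its adjusted p was 0.0218 without Dgcr8+/- replicate 2, 0.0312 without Dgcr8+/- replicate 5 and 0.0232 without WT replicate 2. That of miR-6980-5p was 0.0356 without WT replicate 7, 0.0279 without Dgcr8+/- replicate 4 and 0.0486 without Dgcr8+/- replicate 6. Dgcr8+/- replicate 2 was also the lowest mutant for miR-6978-5p, at 2.01 beside 2.15 to 3.80 in the others.

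Before normalization the block's median was level between genotypes, while that of the other miRNAs was lower in mutants. The median log2 signal of the 44 members on an array lay between 4.84 and 5.37 in WT mice (middle value 4.97) and between 4.77 and 5.11 in mutants (middle value 5.06), a difference of means of 0.00. The median of the other 451 lay between 6.00 and 6.51 in WT mice and between 5.30 and 6.03 in mutants, a difference of means of -0.41. Scaled on the labelling spike-ins, which are synthetic RNAs added before labelling, the differences were 0.01 for the block and -0.40 for the others. After quantile normalization they were 0.37 and 0.00. The distance from block median to the other miRNAs' median, which a scaling factor cannot change, before normalization averaged -1.21 ± 0.12 over WT mice (SD, n = 8) and -0.80 ± 0.29 over mutants (SD, n = 8). It lay from -1.35 to -1.02 in WT mice and from -1.06 to -0.21 in mutants, with replicate 2 at -0.21, so the groups touched at 1 edge. Without normalization 2 members, miR-6912-5p (-0.34, adjusted p = 0.0345) and miR-6943-3p (-0.26, adjusted p = 0.0103), were lower in Dgcr8+/- mice. The sign of the members' changes therefore depended on the normalization, while that distance was shorter in mutants on each scale, at -1.19 in WT mice and -0.82 in mutants after quantile normalization.

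**Figure D4:**
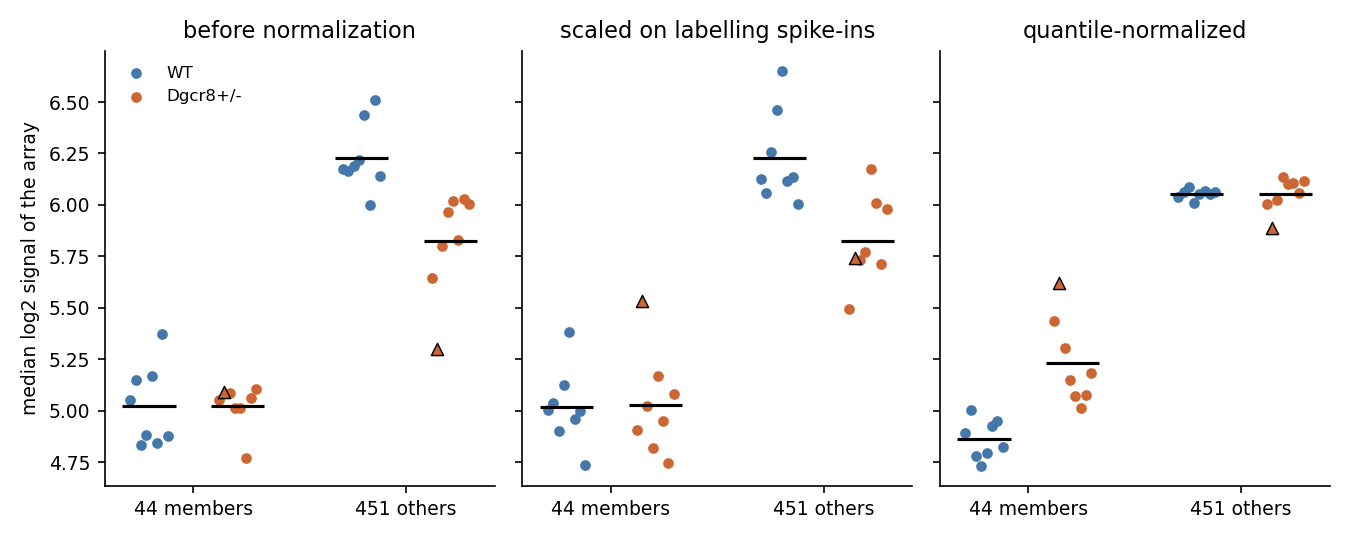
Median log2 signal of the 44 tested members and of the 451 other tested miRNAs on each array, before normalization, after scaling on labelling spike-ins and after quantile normalization (blue WT, orange Dgcr8+/-, triangle Dgcr8+/- replicate 2, lines at group means). The block is level between genotypes in the first and second panels, where the other miRNAs are lower in mutants, and is higher in mutants in the third, where the other miRNAs are level.

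The changes of the members moved with G content, and so did those of miRNAs outside the block. Across the 42 tested members with a sequence, log2 fold change and G content had a Spearman rho of 0.45, against 0.07 for G plus C content. Within the 36 5p members alone the values were 0.30 and 0.09. Across the 384 tested miRNAs outside the block with a sequence the values were 0.34 and 0.36. These correlations are across miRNAs, which share the same 16 arrays and are not independent replicates, and they are given without a test. Among the 20 members with 50% G or more the median log2 fold change was 0.40 and 16 were higher. Among the 32 miRNAs outside the block with as much G the median was 0.39, and 26 were higher and 3 lower. At 40% to 50% G the medians were 0.35 over 11 members (7 higher) and 0.23 over 48 others (20 higher and 9 lower). Below 20% G lay the 6 tested 3p members, with a median of 0.21 (3 higher and 0 lower), and 117 others, with a median of -0.07 (16 higher and 44 lower). At 50% G or more the block and the rest thus had nearly the same median and share of higher calls, while at lower G content the members' medians were the higher ones. These medians are after quantile normalization. Before it they were 0.01 and -0.01 at 50% G or more and -0.16 and -0.53 below 20%, for members and others. Whether G content played a part in the genotype difference was not tested.

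**Figure D5:**
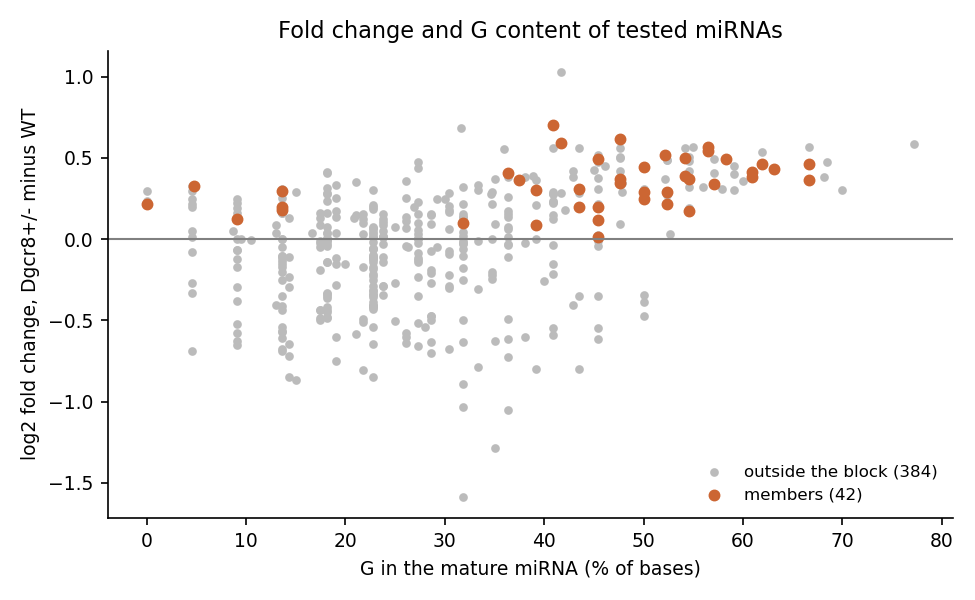
Log2 fold change after quantile normalization, Dgcr8+/- minus WT, against the percent of G in the mature sequence, for 42 tested members (orange) and 384 tested miRNAs outside the block (grey). All 42 members lie above 0 (before normalization 17 of all 44 did), and among grey points the share above 0 is larger at high G content, with a median of 0.39 at 50% G or more and -0.07 below 20%.

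Other miRNAs known to be made without Dgcr8 were read beside the block. Of 13 listed outside the block, 8 were tested, 5 were higher (28.3% of all tested miRNAs were), 0 were lower (27.9%) and the median log2 fold change was 0.23. Of the mirtrons among them, miR-1224-5p stood at 9.46 ± 0.22 over WT mice (SD, n = 8) and rose by 0.53 (SE 0.09, adjusted p = 0.000155), and miR-877-3p rose by 0.25 (adjusted p = 0.0165), while miR-702-3p had 0.13 (adjusted p = 0.293). The capped miR-320-3p and miR-484, whose precursors start at the transcription start and go to Dicer without Microprocessor, rose by 0.25 (adjusted p = 6.4e-05) and 0.31 (adjusted p = 0.000122), and the snoRNA-derived miR-664-3p by 0.22 (adjusted p = 0.00229). The snoRNA-derived miR-1839-5p and miR-1839-3p did not pass, with 0.14 (adjusted p = 0.189) and 0.20 (adjusted p = 0.0529). All these changes too are on the quantile scale. Before normalization the differences were 0.05 for miR-1224-5p and between -0.37 and -0.11 for the other 7. The miRNAs numbered 5000 or above outside the block, a list drawn by number alone with origin not checked, had 28 of 48 higher and 1 lower. Their median was 0.35, and the 37 of them with a sequence had a median G content of 42.9%. No test of the block against these lists was made.

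Markers of the cell types that the slice can hold were read beside the block. Of 21 marker miRNAs, 20 were tested, 2 were higher (28.3% of all tested miRNAs were), 3 were lower (27.9%) and the median log2 fold change was 0.04 after quantile normalization. All 5 markers of ciliated cells were detected on all 16 arrays, with a median change of 0.29 and no call. The log2 of their summed signal lay between 9.08 and 10.33 in WT mice and between 9.76 and 10.61 in mutants. The choroid plexus marker miR-204-5p, detected on all 16 arrays, was lower, with a log2 change of -0.29 (adjusted p = 0.0136). On the same scale, the oligodendrocyte miRNA miR-219a-2-3p and the endothelial miR-126a-5p were higher by 0.29 and 0.16. The immune-cell miR-142a-5p and the neuronal miR-128-3p were lower, with changes of -0.23 and -0.11. The other tested markers of these cell types did not pass. Changes were 0.13 for miR-219a-5p and -0.11 for miR-338-3p (oligodendrocytes), 0.004 for miR-126a-3p (endothelium) and 0.002 for miR-211-5p (choroid plexus). Those of miR-223-3p and miR-142a-3p (immune cells) were -0.14 and -0.17, and those of miR-124-3p and miR-137-3p (neurons) were 0.07 and 0.10. Before normalization all 20 tested markers had negative differences, among them -0.26 for miR-219a-2-3p and -0.35 for miR-126a-5p. In each list the range of summed signal in mutants overlapped that in WT mice, and the red blood cell miRNA miR-144-5p was detected on no array. The part of cell composition in the members' changes was not tested.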

How the data were processed

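Total RNA of the LV wall of 8 WT and 8 Dgcr8+/- mice was labelled with Cy3 and hybridized to Agilent mouse miRNA arrays. The deposited scanner files give background-corrected spot intensity with no normalization between arrays, beside other columns such as spot marks and the software's detection call. The authors also deposited a table of total intensity per miRNA. Labels name Agilent Feature Extraction 10.5.1.1 and the file headers 10.7.3.1. Here marked spots were left out, spots of a probe averaged, probes quantile-normalized, probes of a miRNA averaged, values under 1 set to 1 and log2 taken. Only miRNAs detected on 8 or more of the 16 arrays entered the test. Genotypes were compared with limma 3.58.1 in R 4.3.3 (two-sided, SE for standard error, Benjamini-Hochberg over 495 miRNAs), after tests on simulated data. The number of arrays limits the precision. The p-values set the difference of genotype means against the spread between arrays of a genotype. With 1 array per mouse, that spread does not separate mice from arrays, and the main comparison held no term for the slide.

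The members and lists were chosen with earlier results of these data known. Named members were the 8 brightest tested, the 8 largest rises and up to 6 largest falls among called members on all 16 arrays (there was no fall), both arms of a hairpin where both were tested, the 3 brightest not called, and those nearest the detection limit. Alternatives changed the scaling, background, summary, floor, filter, test, weights, slide, replicate block and single arrays. Replicate numbers were not treated as pairs in the main comparison. Deviations from the genotype means correlated from -0.14 to 0.50 between WT and Dgcr8+/- arrays of the same number. No comparison with arrays of different numbers was made, so whether the numbers pair mice was not settled. Gene spans and sequences came from RefSeq tables of GRCm38.p6.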

Additional observations from a re-analysis of the deposited data

Results flagged for a closer look

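Of 42 groups of 8 arrays searched (the named members, the block median and the number of members detected, in each genotype), 6 held an array far from the others by Dixon's test. Chance gives about 1 in 20 for a single group, but the groups share the same 8 arrays of a genotype and are not independent. Dgcr8+/- replicate 2 was the distant array for miR-6988-5p (7.99, others 7.01 to 7.19), miR-7020-5p (6.19, others 5.19 to 5.61), miR-6898-5p (7.45, others 6.44 to 6.67) and miR-6995-5p (7.56, others 5.99 to 6.39). WT replicate 2 was distant for miR-6978-5p (3.46, others 2.09 to 2.58). Dgcr8+/- replicate 6 had the lowest block median before normalization (4.77, others 5.01 to 5.11). Over all 44 tested members, replicate 2 of the mutants was distant for 15, high for 13 and low for 2. The cause was not tested.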

How the results depend on the processing

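After quantile normalization 30 members were higher, 0 lower, and 15 higher and 0 lower at the study's thresholds, with a median log2 fold change of 0.36 (0.00 for the other tested miRNAs). Leaving out 1 array gave 28 to 33, 0 to 0, 12 to 18 and 0 to 0, with medians of 0.30 to 0.37 and -0.00 to 0.01. With a replicate block the counts were 30 and 15, of which 29 of the first were the same members. Without normalization, 0 were higher, 2 lower, 0 and 1 at the study's thresholds, and medians were -0.014 and -0.44. With labelling spike-ins they were 0, 0, 0, 1, -0.0071 and -0.43. These scalings move the median of all tested miRNAs from 0.04 to -0.39 and -0.38. Scaling on the 75th percentile of detected probes gave 30 at the study's higher threshold and medians of 0.52 and 0.10, and that of all probes -0.077 for the other miRNAs. At the study's thresholds normexp gave 3 higher with a median of 0.10, array weights 9 and slide 2 alone 6. Slide 1 alone gave 31 higher and 1 lower by that rule, with medians of 0.53 and -0.057. By the adjusted threshold, normexp, array weights, slide 1 and slide 2 gave 28, 31, 25 and 21 higher. No detection filter, which brings in 356 undetected or rarely detected members, gave 25 higher and 4 lower at the study's thresholds. At the adjusted threshold it gave 34 higher and 1 lower, and the median was 0.00. The deposited totals gave 1 lower by both rules. The cause of these shifts was not tested.

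Changes turned negative before normalization and with spike-ins for miR-6908-5p (-0.42 and -0.42), miR-6988-5p (-0.24 and -0.23), miR-7082-5p (-0.010 and -0.0033), miR-7047-3p (-0.15 and -0.15), miR-6898-5p (-0.18 and -0.18), miR-6995-5p (-0.21 and -0.20), miR-6912-5p (-0.34 and -0.33) and miR-6980-5p (-0.11 and -0.11). That of miR-6908-5p was -0.061 with the 75th percentile of all probes, -0.057 with array weights, -0.29 on slide 2, and -0.029 to 0.19 when 1 array was left out. That of miR-6912-5p was -0.011 with cyclic loess, -0.0011 with normexp, -2.88 with the deposited totals, -0.14 with array weights, and -0.089 to 0.085 when 1 array was left out. That of miR-6978-5p was -0.22 on slide 1. Changes of the other members named by the rule stayed positive under every alternative run. Signals near background limit the members detected on few arrays.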

Other observations

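The spread of the members between mice was larger in Dgcr8+/- than in WT mice, with median SDs of 0.25 and 0.17 on the log2 scale (n = 8 each), and it was 0.16 in Dgcr8+/- mice without replicate 2. For the miRNAs outside the block the median SDs were 0.20 and 0.12.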
